A study of Mus musculus with 4 samples.

Results

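The cells of the mouse library labelled 2DG were set against those of the library labelled aPDL1, cell type by cell type. Barcodes were used if they had 500 or more genes detected and no more than 10% of their UMIs (unique molecular identifiers, each standing for 1 captured transcript) from mitochondrial genes, which gave 7943 of 8701 barcodes for 2DG and 9044 of 9764 for aPDL1. These 16987 cells came from 35372 that passed the same filter in the series. The series holds 4 single-cell libraries labelled lymph node, 1 per treatment, and its title concerns ovarian tumours and checkpoint blockade. The labels give each group only as its treatment, and neither strain, dose, time nor number of mice was given in the sources used here. The design text speaks of both young and aged mice without saying which gave these libraries, so age and treatment cannot be told apart. With 1 library per treatment there was no replicate check and no test between treatments. Every difference below describes these 2 libraries, and every interval covers counting error only, also because cells of 1 library are not replicates of a treatment.

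2DG is the usual abbreviation of 2-deoxy-D-glucose, a glucose analogue that is phosphorylated by hexokinase and then blocks early glycolysis. It can also enter the building of N-linked glycans in place of mannose, since the sugars differ at 1 hydroxyl group. aPDL1 denotes an antibody against PD-L1, the ligand encoded by Cd274 that restrains T cells through their receptor PD-1, encoded by Pdcd1. PD-L1 is carried by many myeloid and tumour cells, and blocking it is known for releasing CD8 T cells from inhibition.

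The libraries were of similar depth, with 61859753 UMIs in all barcodes of 2DG and 62823127 in those of aPDL1. The median kept cell held 6656 UMIs and 2437 genes in 2DG and 6150 UMIs and 2333 genes in aPDL1. The libraries shared 25 barcodes, 21 of them among the kept cells. The tissue label was checked against stromal genes of lymph nodes: Ccl21a had 1 and 0 UMIs in 2DG and aPDL1, Ccl19 1 and 3, and Madcam1 1 and 0. These 3 genes were thus at or near 0, whereas Cr2, which B cells and follicular stroma express, had 129 and 232 UMIs. B cells made up under 3% of either library. Cells were sorted into classes by UMIs of marker genes per cell, and a class name below means cells that look like that type by those markers.

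CD4-lineage T cells took a larger part of the 2DG library. Cells with Cd4 but without Foxp3 made up 7.89% (exact Clopper-Pearson 95% interval 7.31 to 8.51, 627 cells) of the 2DG library and 4.79% (4.36 to 5.25, 433 cells) of the aPDL1 library. Regulatory T cells, which carry Foxp3 and restrain other T cells, made up 4.77% (4.31 to 5.26) and 2.81% (2.48 to 3.17). Together they were 12.7% of 2DG and 7.60% of aPDL1, a ratio of 1.67. CD8 T cells, the killer T cells, differed less, with 17.5% (16.7 to 18.4) and 18.3% (17.5 to 19.1). Among T cells alone, 49.0% in 2DG and 59.7% in aPDL1 were CD8 T cells. With each cell thinned to 2000 UMIs, which left out 523 and 760 shallower cells, the share of CD4 T cells was 6.08% and 4.07% and that of regulatory T cells 3.21% and 1.98%. With Leiden clusters in place of gates, the log2 ratio of the CD4 T share turned from 0.72 to -0.08, whereas that of CD4 and regulatory T cells together went from 0.74 to 0.50. The only cluster named CD4 T held 266 cells of 2DG and 320 of aPDL1. T cell clusters named neither CD4, CD8 nor regulatory held 334 and 143, 136 and 194, and 131 and 110 cells. Their share of gated CD4 T cells was not tested.

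Monocytes or macrophages took a smaller part of the 2DG library. Gated on genes such as Csf1r and Adgre1, they were the largest class with 37.4% (36.3 to 38.5) of 2DG and 43.2% (42.2 to 44.3) of aPDL1 cells. Neutrophils went the other way, with 3.56% (3.17 to 3.99) and 2.66% (2.34 to 3.02). B cells were 1.57% (1.31 to 1.87) of 2DG and 2.51% (2.20 to 2.85) of aPDL1. Type 1 dendritic cells, which present antigen to CD8 T cells and carry Xcr1 and Clec9a, were 1.64% (130 cells) and 1.01% (91 cells). Of these cells 21.5% in 2DG and 30.8% in aPDL1 lay within 1 UMI of their gate of 2 UMIs. NK cells, type 2 dendritic cells and migratory dendritic cells had intervals that overlapped between the libraries. Epithelial, tumour or stromal cells were rare, with 25 cells in 2DG and 5 in aPDL1, and 11 of those 25 were cycling. Shares of 1 library add to a fixed total, so a lower share of one class goes with higher shares of others.

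**Figure D1:**
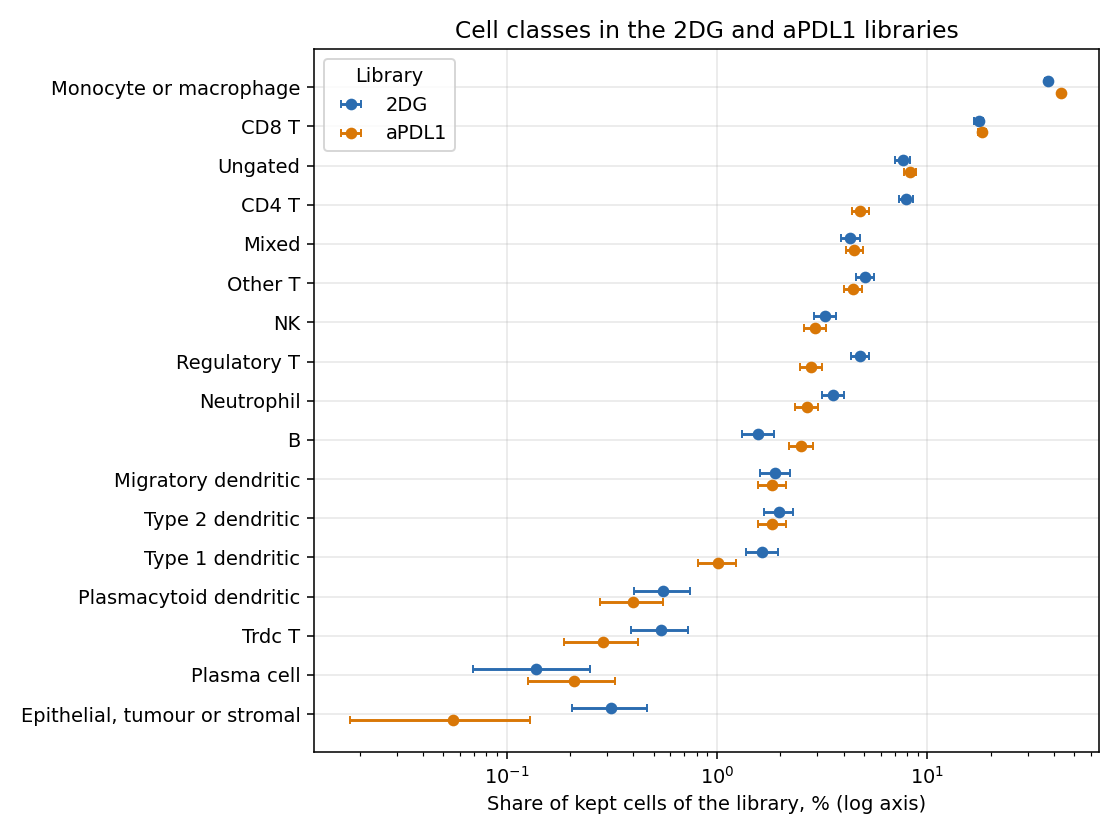
Share of kept cells (%, horizontal axis) in each marker-gated class for the 2DG and aPDL1 libraries, with exact 95% intervals for counting error only. CD4 T cells stand at 7.89% in 2DG and 4.79% in aPDL1, while monocytes or macrophages stand at 37.4% and 43.2%.

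Within the monocyte or macrophage class, classical monocytes, which carry Ly6c2 and Ccr2 and come from blood, were 23.3% (21.8 to 24.9) of the class in 2DG and 29.8% (28.4 to 31.3) in aPDL1. Macrophages with complement C1q transcripts were 12.4% (11.2 to 13.6) and 9.18% (8.29 to 10.1). At 2000 UMIs per cell, the classical share was 34.2% and 40.8% and the C1q share 15.1% and 10.5%, in the same directions. Cells with Arg1 or Spp1, genes of tumour-associated macrophages, were 37.7% and 35.4% before thinning and 21.3% and 22.2% after it. Their order thus turned with depth. So did that of checkpoint-gated T cells, with at least 10 UMIs of Pdcd1, Havcr2, Lag3, Tigit, Tox and Entpd1 together. Tox, which encodes a nuclear factor and not a receptor, had 15245 and 17074 UMIs in CD8 T cells, beside 1761 and 2945 for Pdcd1. Among CD8 T cells the checkpoint-gated cells were 63.2% and 60.6% before thinning and 14.9% and 17.8% after it. No order is read from either share.

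Gene levels were compared in the 9 classes with at least 100 cells in each library, on UMIs summed over the cells of a class and library. Levels are given as CPM, the counts scaled to 1e+06 UMIs of that class and library, and differences as the log2 ratio of 2DG over aPDL1, so that a negative value is lower in 2DG. Cell numbers and library sizes differ between the treatments, but CPM sets each class to its own total. Levels are not per length, so they are compared between libraries and not between genes.

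Slc15a2 and Fkbp5 were lower in 2DG in each of the 9 classes. Neutrophil values of these genes are over all cells of the class, with the cells with primary granule genes described below. Slc15a2 (chromosome 16, 36750177 to 36784962, minus strand, GRCm38 with GENCODE vM21) encodes a transporter of short peptides. Fkbp5 (chromosome 17, 28399094 to 28517527, minus strand) encodes a co-chaperone of steroid receptors. They were also the only genes that the ranking within classes named in 3 classes. In monocytes or macrophages Slc15a2 had 19.1 CPM (17.4 to 20.8) in 2DG and 57.9 CPM (55.2 to 60.7) in aPDL1, a log2 ratio of -1.60 (-1.75 to -1.46). Its UMIs came from 224 cells of 2DG and 750 cells of aPDL1, so no few cells set this value.

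In type 2 dendritic cells Slc15a2 had 11.5 and 95.4 CPM, a log2 ratio of -3.03 (-3.81 to -2.38), the largest difference of this gene. The log2 ratio was -2.36 in migratory dendritic cells, -1.85 in CD4 T cells, -1.43 in NK cells, -1.12 in B cells, -1.02 in regulatory T cells and -0.89 in CD8 T cells. In neutrophils it was -0.41, with an interval from -1.18 to 0.38 that covers no difference. Slc15a2 was the gene past 1.5-fold in the same direction in most classes, 8 of 9, and of 3414 genes measured in all 9 classes no gene was past 1.5-fold one way in all of them.

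Fkbp5 had 58.0 CPM (55.1 to 61.1) in monocytes or macrophages of 2DG and 168 CPM (164 to 173) in those of aPDL1, a log2 ratio of -1.54 (-1.62 to -1.45). The gene had UMIs in 763 and 1620 cells. Within that class it was lower in 2DG in each of 6 states, from -0.92 in C1q macrophages to -1.85 in classical monocytes, where it had 65.7 and 237 CPM. Across the other classes the Fkbp5 log2 ratio was -1.82 in type 2 dendritic cells, -1.76 in B cells, -1.17 in neutrophils, -0.90 in CD4 T cells, -0.67 in NK cells and -0.52 in regulatory T cells. In CD8 T cells, at -0.11 (-0.24 to 0.02), and in migratory dendritic cells, at -0.26 (-0.79 to 0.26), the interval covered no difference.

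Hspa1a and Hspa1b, near-identical genes for the inducible chaperone Hsp70, were higher in 2DG in lymphocytes. Hspa1a had 128 CPM (121 to 135) in CD8 T cells of 2DG and 53.4 CPM (49.2 to 57.9) in those of aPDL1. Its log2 ratio was 1.26 in CD8 T cells, 1.18 in CD4 T cells, 1.25 in NK cells, 1.62 in B cells and 0.77 in regulatory T cells. In monocytes or macrophages Hspa1a was at 246 and 241 CPM, a log2 ratio of 0.03 (-0.02 to 0.08). In neutrophils, again over all cells of the class, it was lower in 2DG, with 82.8 and 214 CPM. Hspa1b gave the same signs in these 7 classes, and reads of the pair may be split between them by the counting. The wider list of heat shock genes was counted too: 12 of 15 measured members were higher in 2DG in CD8 T cells and 14 of 15 in CD4 T cells. Its medians were 0.14 and 0.24, beside -0.02 and 0.01 over all genes of these classes.

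**Figure D2:**
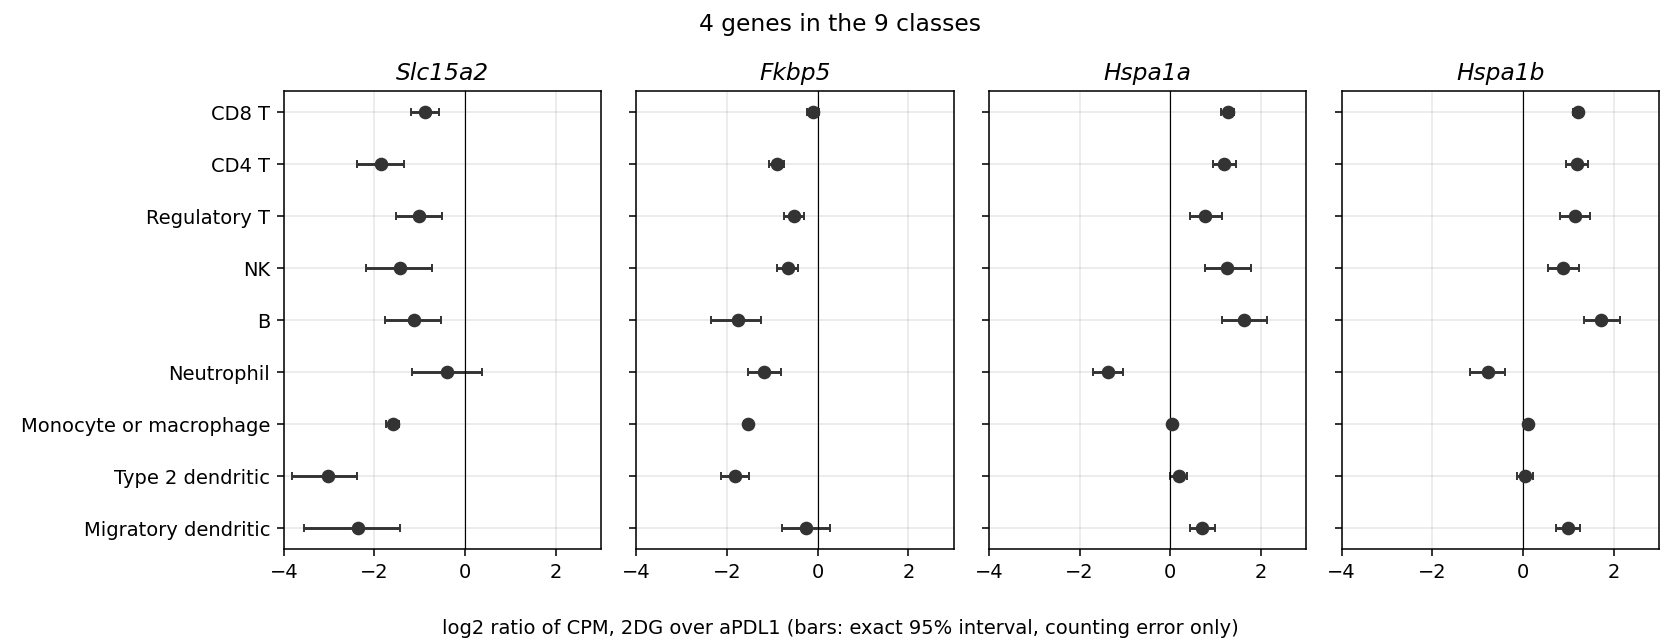
Log2 ratio of CPM, 2DG over aPDL1 (horizontal axes), of Slc15a2, Fkbp5, Hspa1a and Hspa1b in the 9 classes, with exact 95% intervals for counting error only. Slc15a2 and Fkbp5 lie below 0 throughout, while Hspa1a runs from -1.37 in neutrophils to 1.62 in B cells. Neutrophil values include the cells with primary granule genes.

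In CD8 T cells 68 of 10892 measured genes (0.624%) were past 2-fold higher in 2DG and 85 (0.78%) past 2-fold higher in aPDL1. A gene counted as measured in a class with at least 50 UMIs over both libraries. Itgad, which encodes an integrin alpha chain of leukocytes, had 74.0 CPM (68.7 to 79.6) in 2DG and 22.4 CPM (19.7 to 25.4) in aPDL1, a log2 ratio of 1.72 (1.51 to 1.94). Its UMIs came from 290 and 110 cells. 4931431B13Rik had 17.8 and 3.72 CPM, a log2 ratio of 2.24. It lies at 128192050 to 128203328 on the minus strand of chromosome 7, inside Itgad at 128154376 to 128223816 on the plus strand. The sources used here do not state strand-aware counting, so the pair cannot be told apart with certainty. Gzmf, a granzyme gene, had 36.4 and 6.18 CPM, but 1 cell held 73.0% of its 2DG UMIs.

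The metallothionein genes Mt1 and Mt2, whose products bind zinc and copper, were lower in CD8 T cells of 2DG. Mt1 had 29.6 CPM (26.3 to 33.2) in 2DG and 117 CPM (111 to 124) in aPDL1, a log2 ratio of -1.98. Mt2 had 8.18 and 33.5 CPM, a log2 ratio of -2.03. The wider list of metallothionein and oxidative stress genes was split, with 4 of 9 measured higher in 2DG and 5 lower and a median of -0.07. In checkpoint-gated cells Mt1 was at 34.9 and 147 CPM, and in naive-like cells at 20.1 and 38.8 CPM, so it was lower in 2DG in both states. The Mt1 log2 ratio was also below 0 in regulatory T cells (-0.63), migratory dendritic cells (-0.42) and type 2 dendritic cells (-0.32). In CD4 T cells it was -0.35, with an interval from -0.75 to 0.06 that covers no difference. In monocytes or macrophages Mt1 was lower by little, at 859 and 911 CPM. Neutrophils went the other way, with Mt1 at 403 and 96.5 CPM over all cells of the class. The cells with primary granule genes described below were included there. Fam20a, which encodes a secretory-pathway pseudokinase, had 7.87 CPM in 2DG and 33.0 CPM in aPDL1 in CD8 T cells, a log2 ratio of -2.06, and 11.1 and 48.6 CPM in CD4 T cells. In naive-like CD8 T cells it was at 10.4 and 6.46 CPM, against the direction of the class. Gm156, a predicted gene, had 13.1 and 51.7 CPM, a log2 ratio of -1.97.

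Genes of T cell function differed in both directions in CD8 T cells. Pdcd1 had 182 CPM (174 to 191) in 2DG and 268 CPM (258 to 277) in aPDL1, a log2 ratio of -0.55. Ifng, the macrophage-activating cytokine, had 444 and 526 CPM, and Gzmb, a granzyme, had 486 and 543 CPM. The list of 20 cytotoxic and effector genes had 11 members higher in 2DG and 9 higher in aPDL1, with a median of 0.03, which covers members that moved apart. Past 1.5-fold were 4 higher in 2DG and 2 higher in aPDL1, named here after their values were seen. Over all measured genes of the class 2.97% were past 1.5-fold higher in 2DG and 3.04% higher in aPDL1. Eomes, a T-box factor of effector and memory cells, had 154 and 88.3 CPM from 676 and 536 cells, and Prf1, perforin, had 389 and 611 CPM from 755 and 1112 cells. Besides Gzmf, the granzyme genes Gzmd and Gzme were higher in 2DG and Gzmc in aPDL1, but 5 cells held 98.3%, 93.3% and 58.1% of the UMIs of the higher library. T cell activation genes were lower in 2DG in 8 of 11, with a median of -0.28. Their members past 1.5-fold, also chosen so, were Cd44 with 290 and 497 CPM, Icos, a costimulatory receptor, with 204 and 317 CPM, and Il2ra with 34.2 and 63.0 CPM. Of 12 genes listed as inhibitory receptors, with Tox and Entpd1 among them, 8 were higher in aPDL1, none past 1.5-fold, with a median of -0.19. Genes of MHC class I, the peptide display that CD8 T cells read, were higher in 2DG in 17 of 19 measured, none past 1.5-fold, with a median of 0.14.

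Glycolysis genes were mostly lower in T cells of 2DG by a small amount. In CD8 T cells 17 of 21 measured members were lower, with a median of -0.21 beside -0.02 over all genes, and none was past 1.5-fold. In CD4 T cells 15 of 18 were lower with a median of -0.24, and in regulatory T cells 14 of 19 with a median of -0.21. Txnip, an arrestin-like brake on glucose uptake that is transcribed when glucose metabolites are plentiful, had 220 CPM (211 to 229) in CD8 T cells of 2DG and 157 CPM (149 to 164) in those of aPDL1. Its relative Arrdc4 had 6.62 and 3.63 CPM, a log2 ratio of 0.86. Txnip was not higher in every class, as its log2 ratio was 0.46 in B cells and 0.17 in monocytes or macrophages but -0.29 in NK cells. Slc2a1, the gene of the glucose transporter GLUT1, had 59.1 and 54.4 CPM in CD8 T cells.

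In CD4 T cells 118 of 9042 measured genes (1.31%) were past 2-fold higher in 2DG and 88 (0.973%) past 2-fold higher in aPDL1. Hk2, the inducible hexokinase, had 34.1 CPM (28.8 to 40) in 2DG and 101 CPM (88.7 to 114) in aPDL1, a log2 ratio of -1.56. Its UMIs came from 80 of 627 cells in 2DG and 98 of 433 cells in aPDL1. Genes that T cells need to leave and enter lymph nodes or that mark resting cells were lower in 2DG in 9 of 10 measured, with a median of -0.68 beside 0.01 over all genes. Il7r, the interleukin 7 receptor that keeps resting T cells alive, had 100 and 212 CPM. Klf2, a factor that keeps T cells circulating, had 43.4 and 78.5 CPM, and S1pr1, the receptor for exit into lymph, had 16.1 and 28.7 CPM.

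Genes of T cell activation were lower in 2DG as well, in 10 of 11 measured, with a median of -0.43. Il2ra, the high-affinity interleukin 2 receptor chain, had 110 CPM (100 to 120) and 249 CPM (230 to 269), a log2 ratio of -1.18. Cd44, an adhesion receptor of activated cells, had 386 and 605 CPM, and Tnfrsf4, the costimulatory receptor OX40, had 178 and 265 CPM. Naive-like cells were 10.4% of CD4 T cells in 2DG and 14.5% in aPDL1, and 5.65% and 10.3% after thinning. The median CD4 T cell held 6242 UMIs in 2DG and 5371 in aPDL1, and the part of these differences in the gene values was not tested.

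Cholesterol synthesis genes were higher in CD4 T cells of 2DG in 13 of 14 measured, 6 of them past 1.5-fold, with a median of 0.58. Cell cycle genes were higher in 19 of 20, 10 past 1.5-fold, also with a median of 0.58. Over all measured genes of the class 5.34% were past 1.5-fold higher in 2DG, and the median was 0.01. By at least 10 UMIs of cycling markers, 52 of 627 CD4 T cells were cycling in 2DG and 20 of 433 in aPDL1, and after thinning 11 of 620 and 4 of 426 were. Of 15 Golgi genes that trim and branch N-glycans 13 were lower in 2DG, with a median of -0.18, and Mgat5, which adds a branch that binds galectins, had 178 and 250 CPM. Genes that build and transfer the N-glycan precursor gave 20 higher and 10 lower of 30, with a median of 0.14.

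Single genes led in CD4 T cells over many cells or few. Clgn, which encodes a chaperone of the endoplasmic reticulum, had 20.7 and 3.88 CPM, a log2 ratio of 2.35, from 68 and 8 cells. Esm1, a secreted proteoglycan gene, had 52.5 and 14.4 CPM, and Tiam2, an activator of Rac, had 35.7 and 9.32 CPM. Emp1, a membrane protein gene, had 27.9 and 96.7 CPM, a log2 ratio of -1.79. Klrc1, an inhibitory receptor shared with NK cells, had 11.4 and 41.6 CPM, and the NK markers of the gate summed to 26.4 and 50.5 CPM in this class. Their part in the Klrc1 value was not tested. Filip1 had 86.5 and 25.2 CPM, but its log2 ratio of 1.77 was -0.24 when averaged over states with equal weight. Kirrel3 was higher in aPDL1 by 50 UMIs against 5, and turned to 1.66 when clusters replaced gates.

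In regulatory T cells 35 of 7705 measured genes (0.454%) were past 2-fold higher in 2DG and 43 (0.558%) past 2-fold higher in aPDL1. Ifih1 and Ifit1 were among the 5 genes named as higher in 2DG. Ifih1, the RNA sensor MDA5, had 203 CPM (186 to 221) in 2DG and 84.5 CPM (70.8 to 100) in aPDL1, a log2 ratio of 1.26. Ifit1, an interferon-induced gene, had 53.8 and 17.5 CPM, a log2 ratio of 1.60. The list of type I interferon response genes moved less, with 13 of 20 measured higher in 2DG and a median of 0.12. Nckap5 had 132 and 316 CPM, a log2 ratio of -1.26. Thsd7b had 1 UMI in 2DG and 52 in aPDL1. Pdcd1 was at 123 and 104 CPM, with an interval of the log2 ratio from -0.03 to 0.52.

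MHC class II genes, which antigen-presenting cells carry, were lower in regulatory T cells of 2DG in 5 of 6 measured. H2-Aa had 27.7 and 172 CPM, but 5 cells held 88.0% of its aPDL1 UMIs. With the highest doublet scores removed, H2-Aa gave a log2 ratio of 0.19 and the list median turned from -1.35 to 0.22. The monocyte or macrophage markers of the gate summed to 29.2 CPM in 2DG and 31.9 CPM in aPDL1 in this class.

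In NK cells 32 of 6265 measured genes (0.511%) were past 2-fold higher in 2DG and 26 (0.415%) past 2-fold higher in aPDL1. Immediate early genes, which are transcribed within minutes of a stimulus, were lower in 2DG in 20 of 20 measured, 7 past 1.5-fold. Their median was -0.42 beside -0.03 over all genes, of which 3.86% were past 1.5-fold higher in aPDL1. Fosb had 312 CPM (286 to 341) in 2DG and 712 CPM (667 to 759) in aPDL1, Egr1 64.3 and 185 CPM, and Fos 243 and 421 CPM. The same list was lower in 21 of 24 in CD4 T cells, with a median of -0.35, but higher in 13 of 20 in B cells, with a median of 0.20. In monocytes or macrophages its median was -0.05. Gzmb in NK cells was at 2398 and 2249 CPM, a log2 ratio of 0.09, and Ifng at 199 and 236 CPM. Pclaf and Hist1h1b, genes of DNA replication, were higher in 2DG, where 8 of 259 NK cells were cycling against 2 of 265 in aPDL1; after thinning to 2000 UMIs 0 of 257 and 0 of 261 reached 10 UMIs.

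In B cells 56 of 4911 measured genes (1.14%) were past 2-fold higher in 2DG and 47 (0.957%) past 2-fold higher in aPDL1. The class held 125 and 227 cells. Besides Fkbp5, Sorl1, an endosomal sorting receptor, was lower in 2DG with 360 CPM (317 to 408) against 783 CPM (731 to 838), a log2 ratio of -1.12. Hexa, a lysosomal hexosaminidase, had 20.1 and 61.8 CPM, and Pbx3, a homeobox factor, had 35.9 and 91.7 CPM. Several of the values named as higher in 2DG rested on 1 cell. Mpo, the myeloperoxidase of granulocyte precursors, had 166 UMIs in 2DG, all in 1 cell, and 0 in aPDL1. Against the floor of 3 UMIs in the aPDL1 class it was at least 84.9-fold higher. Cxcl10 had 106 and 5.61 CPM, with 94.6% of the 2DG UMIs in 1 cell. Glycolysis genes in B cells were higher in 2DG in 13 of 14, with a median of 0.38. Without the cell that held the Mpo UMIs, 8 of the 14 were higher and the median was 0.13.

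**Figure D3:**
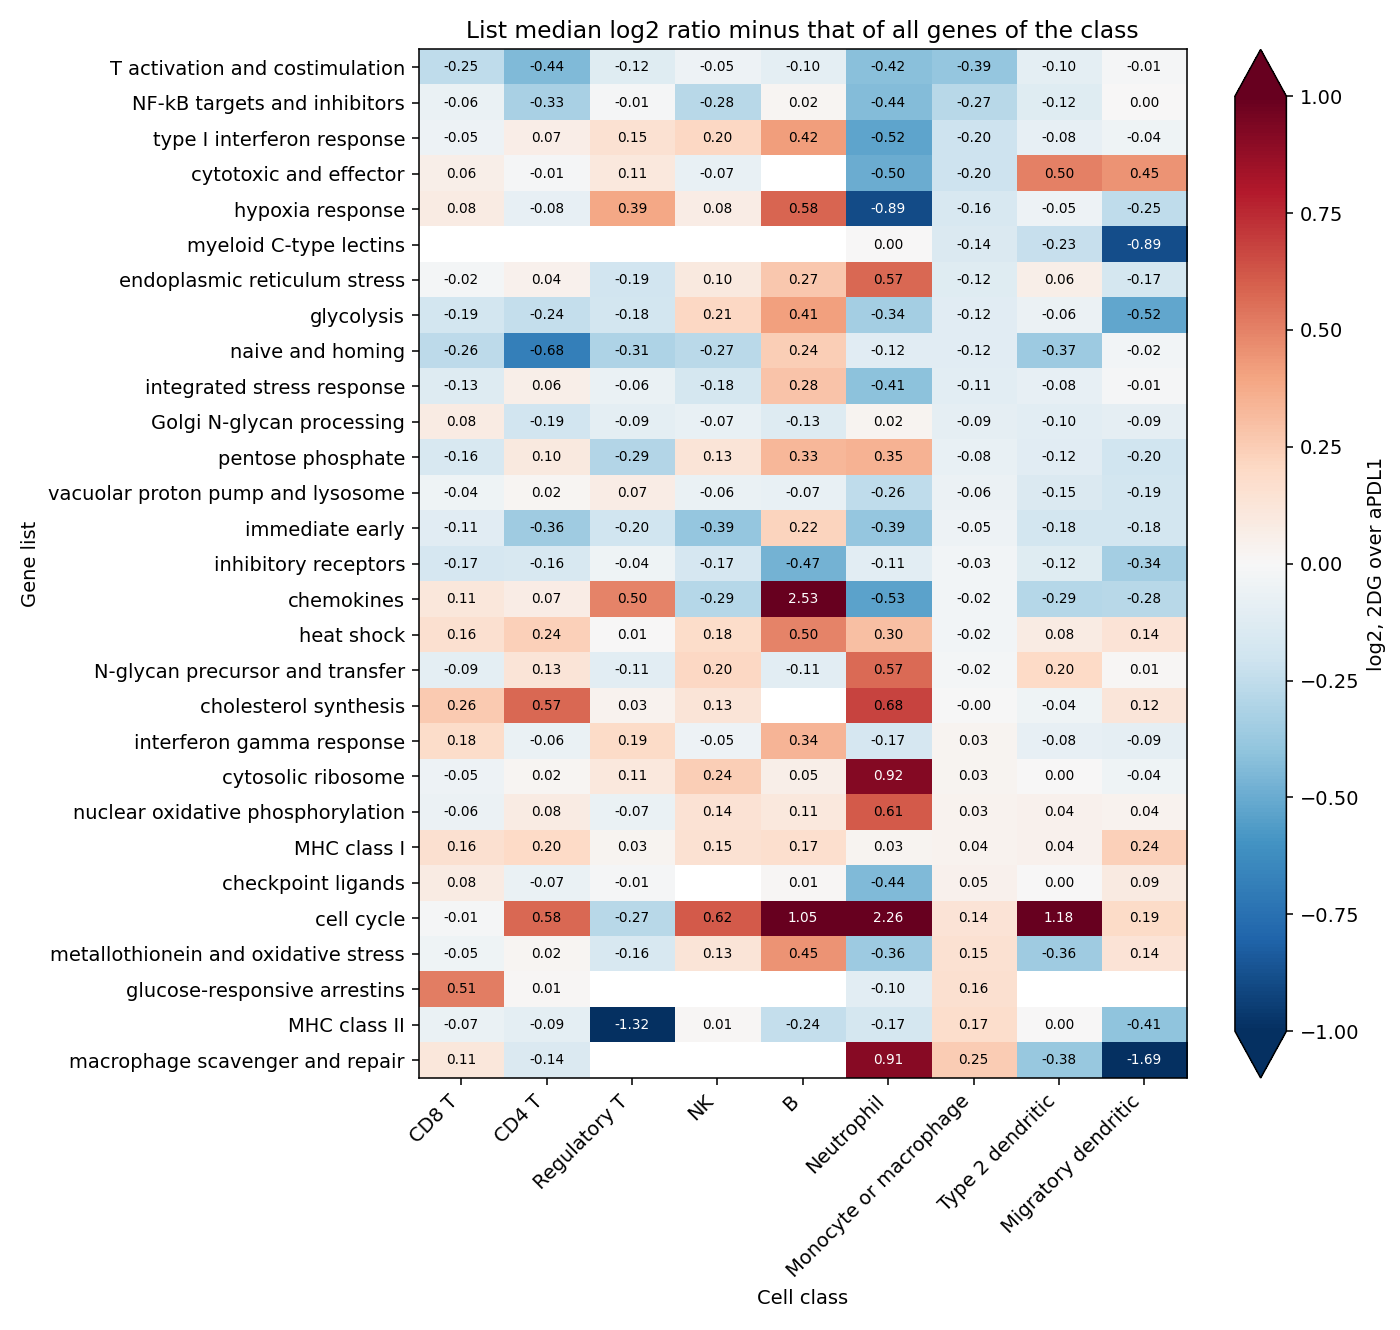
Median log2 ratio (2DG over aPDL1) of 29 gene lists (rows) in the 9 classes (columns), less the median of all measured genes of the class; colours end at -1 and 1, and blank cells had fewer than 3 measured members. The naive and homing list reads -0.68 in CD4 T cells, and the darkest cells are in neutrophils, B cells, regulatory T cells and dendritic cells.

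In neutrophils 432 of 5037 measured genes (8.58%) were past 2-fold higher in 2DG and 114 (2.26%) past 2-fold higher in aPDL1, the highest shares of the 9 classes. Primary granule genes, made by neutrophil precursors and not by mature cells, led this list. Elane, the neutrophil elastase, had 2472 UMIs in 2DG and 1 in aPDL1, and Prtn3, a related protease, 1935 and 9. Mpo had 1141 and 1, and Ctsg, cathepsin G, 482 and 0, at least 106-fold higher in 2DG against the floor of 3 UMIs. Of 283 neutrophils in 2DG, 10 had at least 3 UMIs of these 4 genes together, 9 of them cycling, and they held 6022 of the 6030 UMIs. In aPDL1 1 of 241 neutrophils did.

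Leaving out these primary granule cells moved most values of the class. Of 4354 genes then measured, 65 were past 2-fold higher in 2DG and 97 higher in aPDL1, or 1.49% and 2.23%. All 77 measured ribosomal protein genes were higher in 2DG with these cells, with a median of 0.98, and the median was 0.00 without them. Other lists had fewer members left at 50 UMIs, so medians are given over the members measured both ways. The median of 48 oxidative phosphorylation genes went from 0.61 to 0.05, that of 13 endoplasmic reticulum stress genes from 0.64 to 0.01 and that of 9 N-glycan precursor genes from 0.53 to -0.08. Of 14 cell cycle genes only 3 were measured both ways, and their median went from 2.15 to 0.66. TMM scaling, an alternative to total UMIs, shifted all log2 ratios of neutrophils by -0.11.

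Hypoxia genes were lower in neutrophils of 2DG with and without those cells. Of 12 measured 11 were lower, 7 past 1.5-fold, with a median of -0.83. Without the primary granule cells 8 of the 12 were lower with a median of -0.66. Over all measured genes the medians were 0.06 and, without those cells, 0.01. With all cells, 8.28% of measured genes were past 1.5-fold higher in aPDL1. P4ha1, a collagen hydroxylase subunit, had 73.7 CPM (60.3 to 89.2) in 2DG and 221 CPM (192 to 253) in aPDL1. Egln3, an oxygen-sensing hydroxylase, had 236 and 532 CPM. Their log2 ratios of -1.58 and -1.17 became -1.46 and -0.86 without the primary granule cells. Hk2 had 168 and 333 CPM and Slc2a1 had 239 and 399 CPM, and these log2 ratios of -0.99 and -0.74 became -0.78 and -0.48. Glycolysis genes were lower in 14 of 19, with a median of -0.28 and of -0.37 without the primary granule cells.

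Inflammatory lists of neutrophils were lower in 2DG in most members. Targets and inhibitors of NF-kB were lower in 18 of 19, and Nfkbiz, an inhibitor-like cofactor of NF-kB, had 1070 and 2002 CPM. Type I interferon response genes were lower in 21 of 25, with Rsad2, the antiviral enzyme viperin, at 489 and 1024 CPM. Over the 19 and 24 genes measured both ways, their medians of -0.38 and -0.45 became -0.12 and -0.15 without the primary granule cells. Members higher in 2DG went from 1 to 6 of the 19 and from 4 to 9 of the 24. The CPM of Nfkbiz and Rsad2 are over all cells. Cd274 had 796 CPM (751 to 844) and 1266 CPM (1195 to 1340), a log2 ratio of -0.67 that became -0.35. Cd36, a scavenger receptor, and Klf4, a monocyte factor, had 6 and 90 and 13 and 61 UMIs, and 5 cells held 91.1% and 60.7% of the aPDL1 UMIs.

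**Figure D4:**
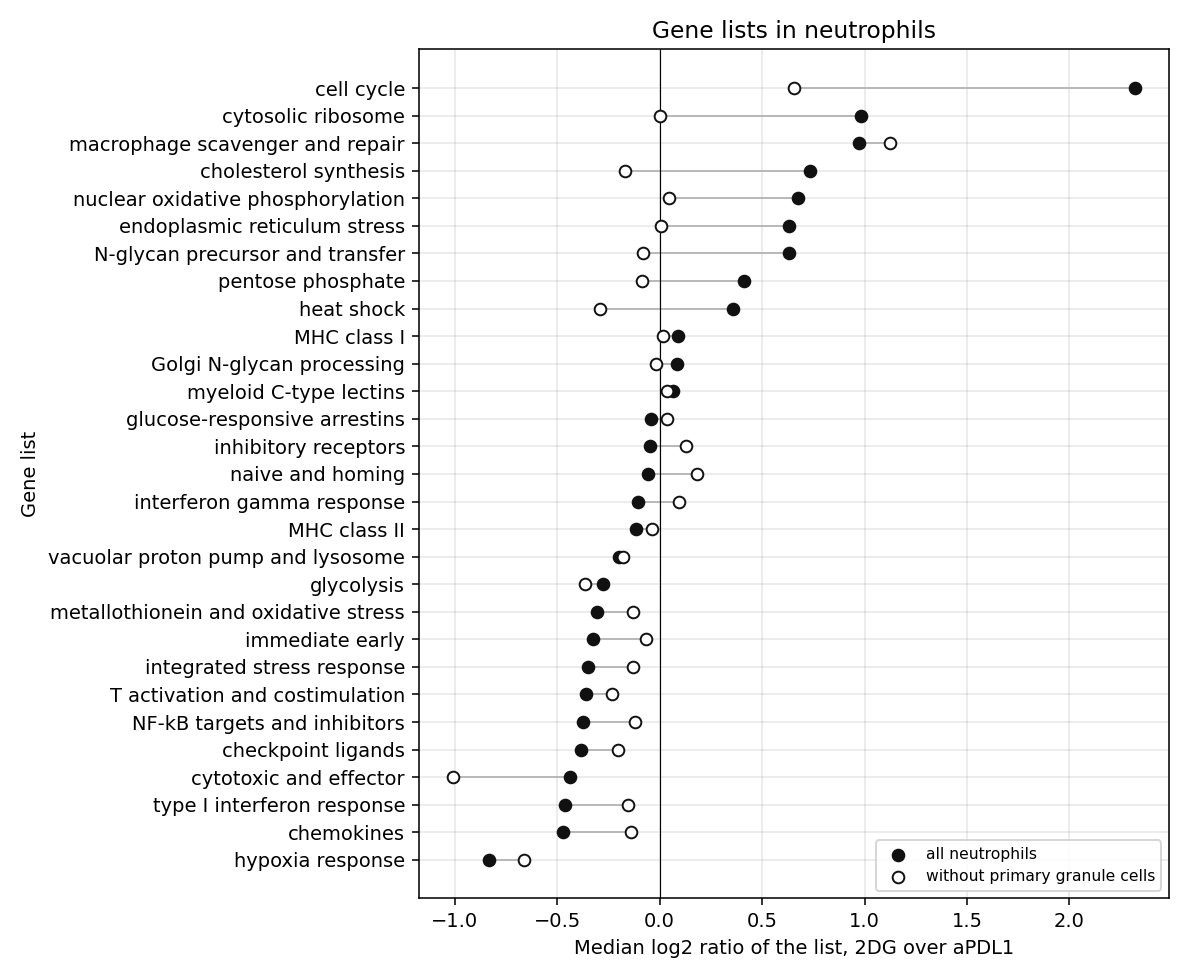
Median log2 ratio (2DG over aPDL1, horizontal axis) of gene lists in neutrophils with all cells and without the 10 and 1 cells that had at least 3 UMIs of Elane, Mpo, Prtn3 and Ctsg, each over the members then measured (3 for the cell cycle list without them). The ribosomal list moves from 0.98 to 0.00, whereas the hypoxia list moves from -0.83 to -0.66.

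In monocytes or macrophages 72 of 12699 measured genes (0.567%) were past 2-fold higher in 2DG and 105 (0.827%) past 2-fold higher in aPDL1. This class gave the most UMIs and so the narrowest intervals. Ccl8, a chemokine of macrophages that draws monocytes and T cells, had 291 CPM (285 to 298) in 2DG and 122 CPM (118 to 126) in aPDL1, a log2 ratio of 1.26, from 597 and 401 cells. It was higher in 2DG in each of 6 states, by 1.16 in Arg1 or Spp1 cells, where it had 468 and 209 CPM, and by 0.98 in C1q macrophages. Retnla, a resistin-like gene of alternatively activated macrophages, had 18.9 and 3.30 CPM, a log2 ratio of 2.51. Its 2DG UMIs came from 34 cells, with 36.0% in 1 cell and 74.0% in 5 cells. C6, a terminal complement component, had 3.70 and 0.88 CPM from 57 and 15 cells.

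Pgf, placental growth factor, was lower in 2DG with 16.8 CPM (15.2 to 18.5) against 46.3 CPM (43.8 to 48.8), a log2 ratio of -1.46. In Arg1 or Spp1 cells, where it was most abundant, it had 29.5 and 101 CPM. Averaged over states with equal weight, its log2 ratio was -0.13, since the resident-like state had 28.6 CPM in 2DG from 43 cells and none in the 41 cells of aPDL1. Gm49838 had 12 and 78 UMIs. Ppbp, a platelet chemokine, was higher in aPDL1, but 1 cell held 79.6% of its UMIs, and Mucl1 came to 98.6% from 1 cell of 2DG.

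Lists in this class differed by little. Type I interferon response genes were lower in 2DG in 27 of 32, none past 1.5-fold, with a median of -0.20 beside 0.00 over all genes. NF-kB targets and inhibitors were lower in 18 of 19, 2 past 1.5-fold, with a median of -0.27. Over all measured genes of the class 3.13% were past 1.5-fold higher in aPDL1. MHC class II genes were higher in 9 of 10, with a median of 0.18. Glycolysis genes were lower in 17 of 22, with a median of -0.11, and Hk2 had 233 and 253 CPM. Cd274, the target of the antibody, had 511 CPM (502 to 520) in 2DG and 476 CPM (468 to 484) in aPDL1, a log2 ratio of 0.10.

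In type 2 dendritic cells, which present antigen mainly to CD4 T cells, 101 of 6777 measured genes (1.49%) were past 2-fold higher in 2DG and 52 (0.767%) past 2-fold higher in aPDL1. All 5 genes named as higher in 2DG belong to cell division. Hist1h1b, a linker histone, had 150 and 27.2 CPM, Pclaf 77.9 and 13.2 CPM, and Knl1, a kinetochore scaffold, 37.8 and 3.31 CPM. Cell cycle genes were higher in 14 of 14, with a median of 1.18. At the same time 13 of 156 cells were cycling in 2DG and 3 of 165 in aPDL1, and only 1 of 156 and 0 of 163 after thinning.

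Besides Slc15a2 and Fkbp5, Glul, glutamine synthetase, was lower in these cells of 2DG with 14.9 CPM (9.73 to 21.8) against 61.6 CPM (49.7 to 75.5), and Selenop, a selenium carrier, with 16.6 against 60.9 CPM. Cd274 had 383 and 572 CPM, a log2 ratio of -0.58. Cells within 1 UMI of the gate were 23.7% of this class in 2DG and 26.7% in aPDL1, more than in the other 8 classes compared on gene levels.

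In migratory dendritic cells, which carry Ccr7 and move to lymph nodes, 46 of 6339 measured genes (0.726%) were past 2-fold higher in 2DG and 124 (1.96%) past 2-fold higher in aPDL1. Cd274 was at 1382 and 1335 CPM, a log2 ratio of 0.05 (-0.04 to 0.14). Glycolysis genes were lower in 2DG in 15 of 16, 5 past 1.5-fold. Their median was -0.56 beside -0.04 over all genes, of which 7.45% were past 1.5-fold higher in aPDL1. Tpi1, a glycolytic isomerase, had 150 CPM (132 to 170) and 254 CPM (230 to 280), and Slc16a3, a lactate exporter, had 44.1 and 78.1 CPM. MHC class I genes were higher in 16 of 19, none past 1.5-fold, with a median of 0.20, and Psmb9, an immunoproteasome subunit, had 380 and 284 CPM.

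Macrophage scavenger and repair genes were lower in migratory dendritic cells of 2DG in 8 of 9 measured, with a median of -1.73. With clusters in place of gates this median was -0.74. Mrc1, the mannose receptor, had 13.2 and 82.5 CPM. Plxdc2, a membrane protein gene, had 18.9 and 146 CPM, with 76.5% of its aPDL1 UMIs in 5 cells. The 9 marker genes that gate monocytes or macrophages, C1qa, C1qb and C1qc of this list among them, summed to 133 CPM in 2DG and 463 CPM in aPDL1 in this class, with a median of 0 UMIs per cell in both. Cells with both dendritic and macrophage markers were not called mixed. The part of such cells in this list and in the other values of the class was not tested. Plxna4 had 0 and 59 UMIs, at least 19.8-fold higher in aPDL1 against the floor of 3 UMIs. Those UMIs came from 9 cells, with 42.4% in 1 cell and 88.1% in 5 cells. Bgn and Mgp, matrix genes of stromal cells, came almost all from 1 cell of 2DG.

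The number of cells behind a value set apart the genes named by the ranking within classes. Of these 90 values, 46 had over 50% of the UMIs of the higher library in 5 cells, and 16 had over 50% in 1 cell. In CD8 T cells this held for 1 of 10 genes at 5 cells, in monocytes or macrophages for 5 of 10, in migratory dendritic cells for 9 of 10 and in neutrophils for 10 of 10. After removal of the cell with the most UMIs from each library, 5 values were no longer past 2-fold in their direction, 4 of them in B cells and 1 in migratory dendritic cells.

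**Figure D5:**
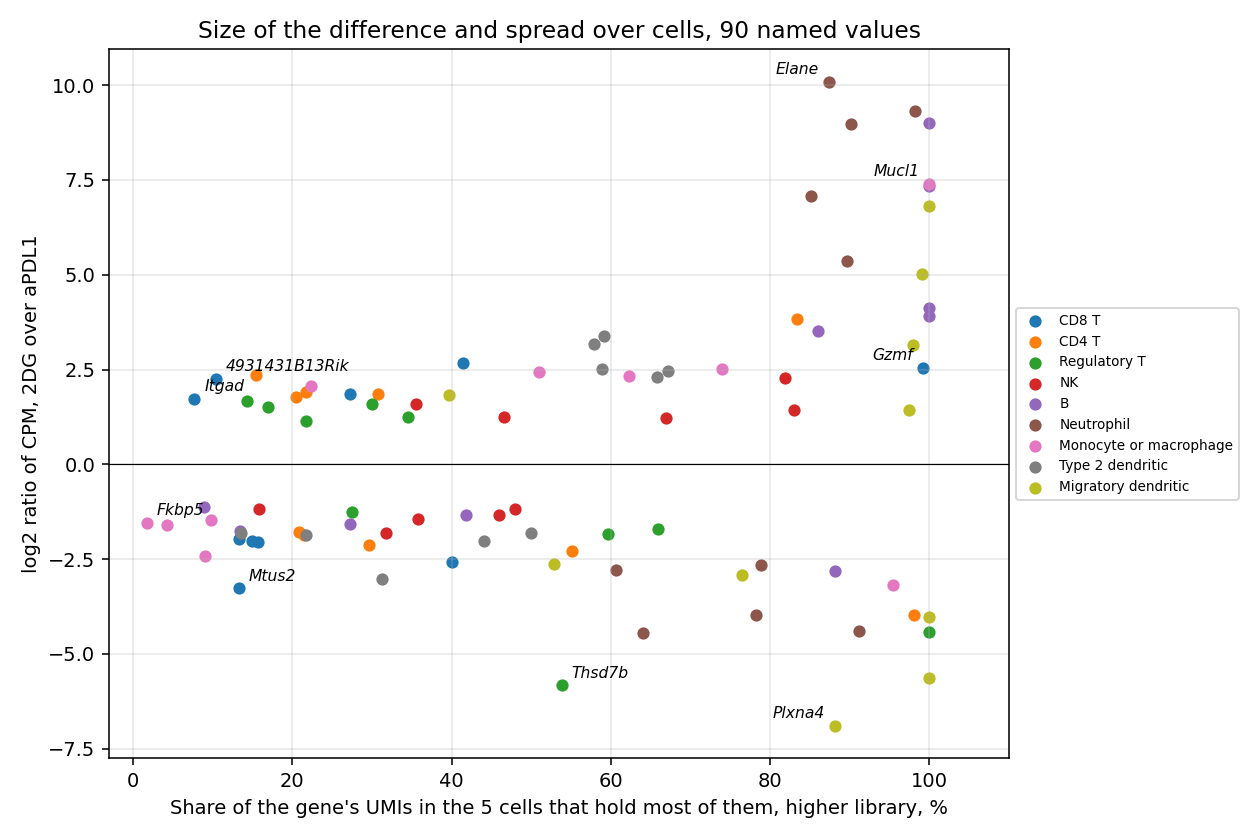
Log2 ratio of CPM (2DG over aPDL1, vertical axis) against the share of the gene's UMIs held by the 5 cells with most of them in the higher library (%, horizontal axis), for 90 named gene and class values; genes with 0 UMIs in a library are drawn with 0.5 UMIs added. Fkbp5 and Itgad sit at the left, and most of the largest ratios, such as Elane in neutrophils, sit at the right.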

How the data were processed

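The deposited files hold raw counts of UMIs per gene and barcode from a 10x 3' kit. Cell Ranger 3.1.0 and mm10 are named per the submitters' processing notes and Cell Ranger 7.0.0 per the file headers, and no source used here says whether introns were counted. Members, gates and gene lists were chosen with earlier results of these data known. Cells were gated on marker UMIs, with gate levels set after looking at marker UMIs. Cells with markers of several lineages (a further lineage at 10% or more of the first) were called mixed and kept out of classes. Monocyte, macrophage and dendritic markers counted as the same lineage, so cells with both kinds were not called mixed. A difference from the study may come from these rebuilt names. Doublets were left in, and Scrublet (scanpy 1.11.5) scores were used in an alternative that removed 553 and 706 cells; its automatic threshold marked 2.29% and 2.76%. UMIs were summed per class and library and scaled to CPM, with exact Poisson intervals. The log2 ratio adds 0.5 UMIs to each library and has an exact conditional binomial 95% interval. The ratios and their intervals were checked on simulated Poisson counts for CD8 T and NK cells. Such counts follow the model behind the intervals, so this checks the calculation and not the spread between cells. Since each treatment has 1 library, size alone was described: past 2-fold for genes and 1.5-fold within lists.

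The genes named were up to 5 per direction and class past 2-fold with at least 50 UMIs, ranked by the end of the interval nearest to 0, without receptor segment, haemoglobin, mitochondrial and gating genes and genes far higher in another class. Also named were 10 genes of the treatments' pathways and T cell function, and up to 4 genes of each list in the class where its median lay farthest from that of all genes. Alternatives were other scaling (TMM, edgeR 4.0.16), UMI minimums, cell filters, clusters in place of gates, thinning, doublet removal, equal weight per cell or state, and 2 chosen after seeing the data: without cells with primary granule transcripts and without the top cell of each library. Gene positions come from GENCODE vM21 on GRCm38, the build that mm10 names. Python 3.11.15, numpy 2.4.6, scipy 1.17.1, pandas 2.3.3 and R 4.3.3 were used. The ctrl and combination libraries were not used here beyond the cell count.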

Additional observations from a re-analysis of the deposited data

How the results depend on the processing

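No paired analysis was possible because each treatment had 1 library and the labels carry no shared replicate number. Of 147 named values past 2-fold, the sign was kept by 147 with TMM factors (146 still past 2-fold that way), 147 with the stricter cell filter (137), 146 with equal weight per cell (120), 144 without the top cell (141), 142 with doublets removed (124), 139 with clusters (107), 51 of 52 with equal weight per state (39), and 38 of 38 without primary granule cells (20). Where a value changed and no construction below shows why, the cause was not tested.

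For shares, the log2 ratio with clusters was -0.079 for CD4 T and 0.50 for CD4 and regulatory T together, for neutrophils 0.90 with the stricter filter, and for epithelial, tumour or stromal cells 0.50 with doublets removed.

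Counts of genes past 2-fold (higher in 2DG, then in aPDL1) depended on the UMI minimum, since fewer UMIs give wider ratios and a higher minimum tests fewer genes. At a minimum of 1 UMI they were 2184 and 2366 in CD8 T, 1495 and 2178 in CD4 T, 1303 and 1957 in regulatory T, 2195 and 2172 in NK, 2304 and 1092 in B, 2750 and 1867 in neutrophils, 2112 and 2487 in monocytes or macrophages, 2451 and 1862 in type 2 and 2217 and 2478 in migratory dendritic cells. At 200 UMIs, in the same order of classes, they were 17 and 27, 20 and 27, 3 and 8, 5 and 2, 4 and 3, 106 and 34, 19 and 28, 17 and 7, and 6 and 26. With clusters they were 66 and 49 in CD4 T, 31 higher in 2DG in B, 249 higher in 2DG in neutrophils and 96 higher in aPDL1 in type 2 dendritic cells. Removing doublets gave 23 in B and 118 in neutrophils, and leaving out primary granule cells 25 and 65, all higher in 2DG. Equal weight per cell gave 71 higher in aPDL1 in B, and 218 in neutrophils and 119 in monocytes or macrophages higher in 2DG.

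For list medians, chemokines in B gave 0.27 and, in neutrophils, cell cycle 1.34, ribosome 0.27 and cholesterol synthesis 0.12 with equal weight per cell. Neutrophil cell cycle was 1.01 with doublets removed. Without primary granule cells, chosen after seeing the data, neutrophil medians were 0.66 for the 3 cell cycle genes left, 0.0039 for ribosome, 0.047 for oxidative phosphorylation, 0.0057 for endoplasmic reticulum stress, -0.17 for cholesterol synthesis and -0.084 for N-glycan precursor genes. With clusters, macrophage scavenger genes in migratory dendritic cells were -0.74 and cytotoxic genes in type 2 dendritic cells -0.20. MHC class II in regulatory T was 0.27 with clusters, 0.22 with doublets removed, -0.61 over states and -2.002 at 200 UMIs.

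Single genes that turned were Filip1 in CD4 T (-0.24 over states), Kirrel3 in CD4 T (1.66 with clusters), Cxcl10 in B (-1.42 with clusters), Spp1 (-1.21 without the top cell) and Pf4 (0.0087 with clusters) in migratory dendritic cells. Slco3a1 in B was -0.18 with clusters, -2.98 with doublets removed and -2.77 without the top cell. Ccl4 in B was -2.48, -1.07, -0.37 and -0.88 with clusters, doublets removed, equal weight per cell and no top cell. In regulatory T, clusters and doublet removal gave 0.63 and 0.19 for H2-Aa, 0.28 and 0.19 for H2-Ab1, and 0.75 and 0.92 for H2-Eb1. Depth limits classes of few cells most: 3 UMIs are 4.30 CPM in B cells of 2DG and 0.118 CPM in monocytes or macrophages of 2DG.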

Other observations

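Mast cell genes came almost entirely from 1 cell of 2DG. Cpa3, Mcpt4 and Tpsb2, proteases stored in mast cell granules, had 1207 UMIs together in 2DG, of which 1194 lay in 1 cell, and 9 UMIs in aPDL1, where 0 of 9044 cells held at least 3. Plasma cells, which secrete antibody, numbered 11 in 2DG and 19 in aPDL1. T cells with Trdc, the constant gene of the delta chain, numbered 43 and 26, or 0.541% and 0.287% of the libraries. Plasmacytoid dendritic cells, the producers of type I interferon, numbered 44 and 36, and 4 of the 44 were cycling against 0 of the 36.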
